A study of Mus musculus with 12 samples.

Results

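Mesangial and mural cell genes are followed here in sorted glomerular endothelial cells (GEC). The 9 members, *Pdgfrb*, *Pdgfra*, *Acta2*, *Tagln*, *Myh11*, *Des*, *Cnn1*, *Rgs5* and *Ren1*, were taken by gene name from the 2 deposited count tables, which together list 19564 genes. The dimtdT table holds 6 of them, the brighttdT table holds 8, and *Cnn1* is in neither. The mice were C57BL/6, 4 months old, and all carried Tek-Cre and a ROSA26 tdTomato reporter, so that tdTomato (tdT) was switched on in cells in which the *Tek* promoter had driven the recombinase. WT mice were compared with Alport syndrome (AS) mice, which the labels give as Col4a5 -/-, a knockout of a collagen IV chain of the glomerular basement membrane. Glomeruli of 3 mice of each genotype were digested and tdT cells were sorted by brightness into dimtdT and brighttdT GEC, which gives 12 RNA-seq libraries in 4 groups of 3. Each mouse gave 1 library of each subpopulation, and replicates of a group are separate mice. Cre under the *Tek* promoter is known to recombine in blood cells as well as in endothelium, which limits the sort as a model of GEC alone.

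Mesangial cells are the contractile, pericyte-like cells that hold the capillary loops of the glomerulus together. They depend on platelet-derived growth factor B, which the endothelium makes and which they bind with the receptor PDGFRβ. Vascular smooth muscle cells of the arterioles express a larger set of contractile proteins, and the renin cells of the afferent arteriole belong to the same mural lineage. None of these cells is endothelial, and which cells of a sorted library carried the RNA was not measured.

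The counts on genes summed to between 11440169 and 13923267 in the dimtdT and between 13674045 and 15074909 in the brighttdT libraries. Levels are given as CPM, the count of a gene per 1000000 counts on genes of its library. The targeted gene, *Col4a5*, had 439 to 877 counts in WT-dimtdT and 17 to 51 in AS-dimtdT, whereas WT-brighttdT (69 to 158 counts) and AS-brighttdT (43 to 104) overlapped. The counts on this gene thus separate the genotypes in the dimtdT but not in the brighttdT libraries, where they do not bear out the labels, and where on the gene the reads lie was not measured. Directions of AS over WT in the brighttdT GEC are those of libraries labelled AS and WT. Summed over 12 endothelial markers, the brighttdT libraries reached 11820 to 17986 CPM and the dimtdT libraries 232 to 1420 CPM. Of 12 leukocyte markers, all were listed for the dimtdT libraries, with a sum of 8176 to 17556 CPM that goes against a purely endothelial label, and 8 for the brighttdT libraries, with 30.9 to 126 CPM. The 10 proximal tubule markers were highest in the mouse of WT replicate 1, at 5852 CPM in its dimtdT and 2726 CPM in its brighttdT library, against 1222 to 1466 and 380 to 542 CPM in the other WT mice. The proximal tubule sum also moved with genotype, at 13.9 to 375 CPM in AS-dimtdT and 22.03 to 472 CPM in AS-brighttdT. For AS over WT in dimtdT GEC all 10 markers were lower without overlap, where 14.6% of all genes were. Of them 4 were called, against 8.63% of all genes, and the median log2 fold change of the 10 was -4.20. The leukocyte sum was higher in AS-dimtdT (15542 to 17556 CPM) than in WT-dimtdT (8176 to 12900 CPM) without overlap. The part of either in the genotype differences below was not tested.

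**Figure D1:**
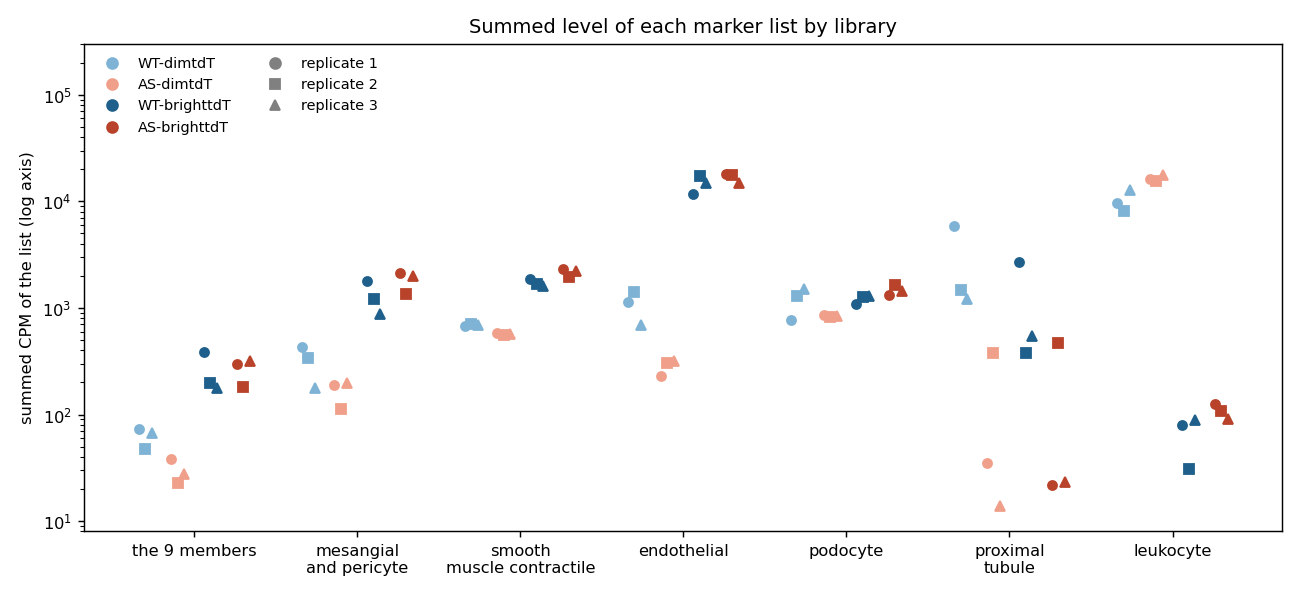
Summed CPM (log axis) of the members and of each marker list in every library, with colour for the group and shape for the replicate. The members sum to 22.6 to 72.9 CPM in the dimtdT and 179 to 386 CPM in the brighttdT libraries, below every endothelial sum of the same group.

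PDGFRβ is the receptor through which mesangial cells and pericytes are recruited to capillaries. *Pdgfrb* had 16.8, 14.2 and 8.79 CPM in the WT-dimtdT libraries of replicates 1 to 3, and 104, 64.8 and 52.5 CPM in the WT-brighttdT libraries of the same mice. The AS mice had 17.3, 13.1 and 9.27 CPM in the dimtdT and 148, 79.4 and 182 CPM in the brighttdT GEC. Every brighttdT library lay above every dimtdT library, in both genotypes. The order of the group means was AS-brighttdT (137 ± 52.5 CPM, SD, n = 3), WT-brighttdT (73.6 ± 26.6), WT-dimtdT (13.3 ± 4.10) and AS-dimtdT (13.2 ± 4.02), in which both pairs of genotypes overlapped. *Pdgfrb* was higher in the brighttdT GEC by 2.42 on the log2 scale in WT (standard error 0.38, adjusted p = 0.00154 in edgeR's quasi-likelihood test), a 5.35-fold difference, and by 3.43 in AS (standard error 0.37, adjusted p = 3.06e-05 in the same test), a 10.8-fold difference. These bulk libraries cannot tell fewer cells of a type from less RNA per cell.

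Of the 6 members in both tables, 3 were higher in WT-brighttdT than in WT-dimtdT GEC (*Pdgfrb*, *Rgs5* and *Des*) and none was lower, against 13.8% of 14247 genes called higher and 25.3% called in either direction. The same 3 members lay without overlap above the dimtdT libraries, as did 23.4% of all genes. The median log2 fold change of the 6 was 2.43, that of all genes -0.04. In the AS mice all 6 were higher, against 28.6% of 14052 genes called higher and 55.1% called in either direction, with a median of 3.50 for the members and 0.02 for all genes. None of the 6 overlapped between AS-brighttdT and AS-dimtdT, and 30.9% of all genes were higher without overlap. The WT and AS comparisons share no library. Whether the brightness difference itself changed with genotype was tested as an interaction in all 12 libraries, and 0 of the 6 members passed edgeR's quasi-likelihood test, against 3.77% of 15084 genes. At an unadjusted p under 0.05 the count was 1, *Pdgfra* (18.5% of all genes), and DESeq2 called 1, the same gene. All 6 interaction terms were above 0, as were 55.9% of all genes tested (48.5% with library sizes alone, under which the 6 stayed above 0).

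**Figure D2:**
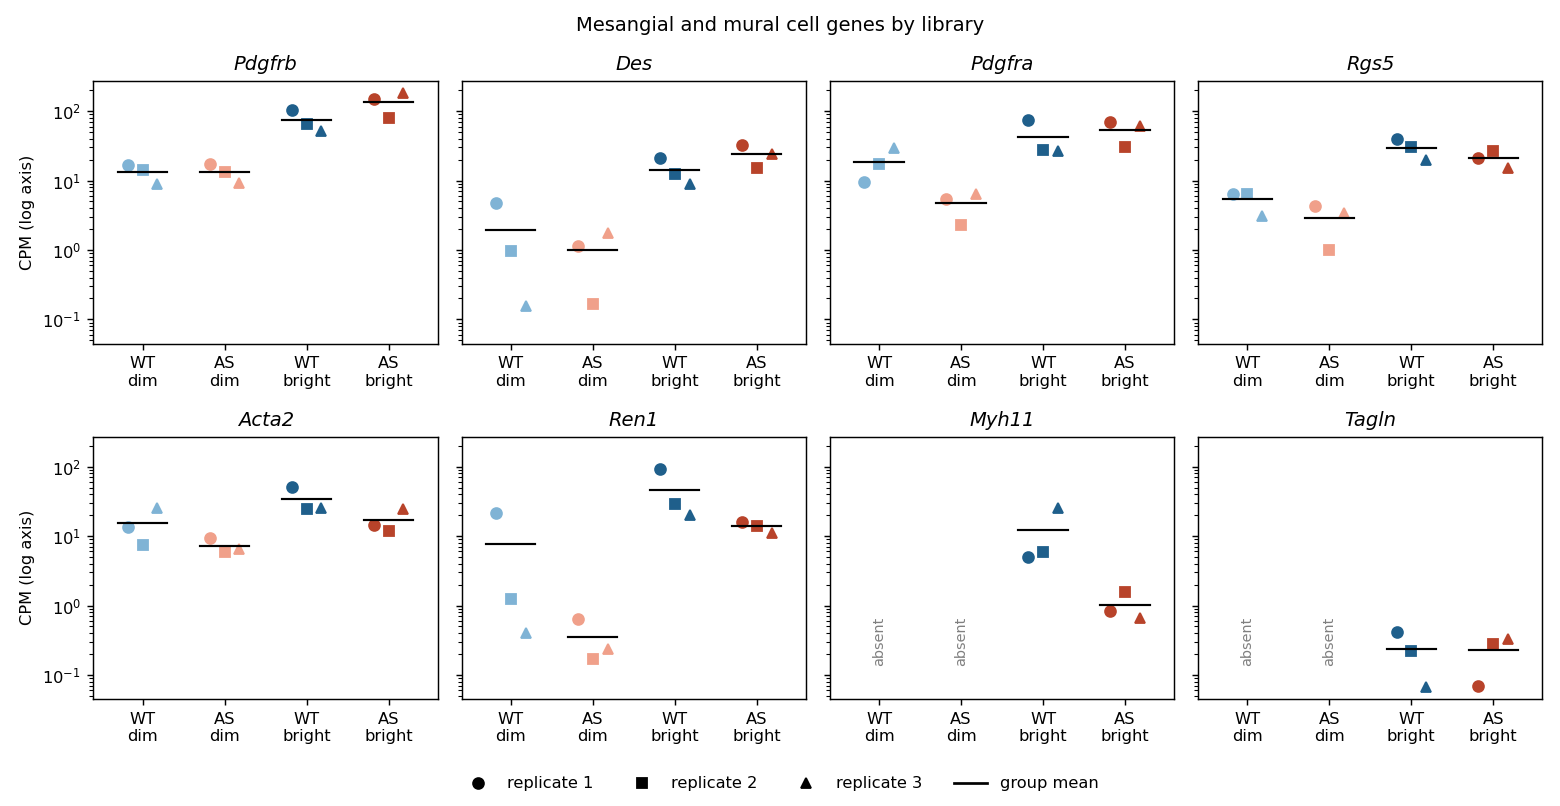
CPM (log axis) of the 8 listed members in each library, with colour for the group, shape for the replicate and a black line at the group mean. *Pdgfrb*, *Des* and *Rgs5* are higher in every brighttdT than in every dimtdT library, and *Myh11* and *Tagln* are absent from the dimtdT table.

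*Pdgfra* encodes the other PDGF receptor chain, which fibroblasts and many mesenchymal cells carry. It did not follow *Pdgfrb* in the WT mice, with 9.65, 17.0 and 29.4 CPM in the dimtdT and 74.5, 27.9 and 26.8 CPM in the brighttdT libraries of replicates 1 to 3. WT replicate 1 was thus the lowest dimtdT and the highest brighttdT library, and replicate 3 had about the same level in both. The WT difference, 1.13 on the log2 scale with a standard error of 0.53, missed the threshold (adjusted p = 0.157 in edgeR's quasi-likelihood test). It was 0.18 without both libraries of WT replicate 1 and 0.50 without its brighttdT library alone, in a range of 0.18 to 1.69 over 13 alternatives, none of which called it (adjusted p 0.0698 to 0.81 in edgeR's test or DESeq2). In the AS mice the dimtdT level was 5.39, 2.26 and 6.44 CPM and the brighttdT level 68.7, 30.6 and 61.2 CPM. This 11.8-fold difference passed the test (log2 fold change 3.56, standard error 0.44, adjusted p = 7.52e-05 in edgeR's quasi-likelihood test).

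The lowest WT-dimtdT library (9.65 CPM) lay above the highest AS-dimtdT library (6.44 CPM) for *Pdgfra*, the only member lower in AS-dimtdT without overlap, where 14.6% of all genes were. AS over WT in dimtdT GEC was -2.06 on the log2 scale (standard error 0.55, 95% interval -3.31 to -0.81), with an adjusted p of 0.0545 in edgeR's quasi-likelihood test, just beyond the threshold of 0.05. The call was made without WT-dimtdT replicate 1 (adjusted p = 0.0443 in edgeR's test) and by DESeq2 (adjusted p = 0.00418), in a range of 0.00418 to 0.165 over 12 alternatives. The interaction for *Pdgfra* was 2.50 (standard error 0.76, adjusted p = 0.0875 in edgeR's test) and was called without both libraries of WT replicate 1 or without its brighttdT library alone. The summed podocyte markers had the same order as *Pdgfra* in the WT-dimtdT libraries, at 776, 1305 and 1508 CPM in replicates 1 to 3, and stood at 829 to 854 CPM in AS-dimtdT. All 9 of them were listed, and their part in the result was not tested. Annotated genes on either strand overlap *Pdgfra* (chromosome 5, 75152292 to 75198215, plus strand of GRCm38), and the strand counted is not given in the sources used here, so its counts are uncertain to that extent.

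All 4 PDGF ligand genes were measured in both tables. *Pdgfb*, the endothelial ligand of PDGFRβ, had 609, 748 and 702 CPM in WT-brighttdT and 65.8, 117 and 46.7 CPM in WT-dimtdT GEC. In AS it had 468, 478 and 695 CPM in the brighttdT and 48.7, 45.5 and 49.6 CPM in the dimtdT libraries. The brighttdT libraries were all above the dimtdT libraries. In WT 3 of the 4 ligands were called higher in the brighttdT GEC, with log2 fold changes of 3.14 for *Pdgfb*, 3.66 for *Pdgfd* and 3.08 for *Pdgfa*, and in AS all 4 were, from 3.57 for *Pdgfb* to 5.33 for *Pdgfd*, against 13.8% and 28.6% of all genes called higher. *Pdgfd*, a second ligand of PDGFRβ, was lower in AS-dimtdT (4.10 to 4.31 CPM) than in WT-dimtdT (8.87 to 20.1 CPM), or -1.84 on the log2 scale (standard error 0.42, adjusted p = 0.0369 in edgeR's quasi-likelihood test). *Pdgfc*, a ligand of PDGFRα, was lower as well, at 0.71 to 1.36 against 3.85 to 7.67 CPM (log2 fold change -2.53, adjusted p = 0.0339 in the same test). Of 12 alternatives, 5 called *Pdgfd* and 6 called *Pdgfc* lower in AS-dimtdT. The test of genotype was passed by 2 of the 4 ligands in the dimtdT GEC and by 0 in the brighttdT GEC, against 8.63% and 0.452% of all genes.

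*Des* and *Rgs5* mark mesangial cells and pericytes. *Des* encodes desmin, the intermediate filament of muscle, and had 4.79, 0.962 and 0.158 CPM in WT-dimtdT and 21.1, 12.4 and 8.80 CPM in WT-brighttdT GEC. The dimtdT counts of replicates 1 to 3 were 58, 11 and 2, so that replicate 1 held most of them. In AS, *Des* had 1.15, 0.167 and 1.73 CPM in the dimtdT and 32.0, 15.1 and 24.1 CPM in the brighttdT libraries. It was 6.87-fold higher in WT-brighttdT than in WT-dimtdT (log2 fold change 2.78, standard error 0.78, adjusted p = 0.0292 in edgeR's quasi-likelihood test) and 23.7-fold higher in AS (4.57, standard error 0.54, adjusted p = 5.69e-05). The WT call was lost without any of WT-dimtdT replicates 2 and 3 or WT-brighttdT replicates 1 and 2 (adjusted p 0.065 to 0.0936 in edgeR's test) and with edgeR's version 3 fit (adjusted p = 0.0843), and the log2 fold change was 4.22 (adjusted p = 0.011 in edgeR's test) without both libraries of WT replicate 1, in a range of 0.0049 to 0.0936 over 13 alternatives. An antisense gene overlaps *Des* (chromosome 1, 75360329 to 75368579, plus strand).

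*Rgs5*, a regulator of G protein signalling that is typical of pericytes, had 6.44, 6.47 and 3.09 CPM in WT-dimtdT and 39.1, 30.2 and 19.8 CPM in WT-brighttdT libraries. In AS the dimtdT libraries had 4.24, 1.004 and 3.38 CPM and the brighttdT libraries 21.3, 26.4 and 15.1 CPM. The groups of different brightness did not overlap in either genotype, and those of different genotype did. Its brightness difference was 2.43 in WT (standard error 0.45, adjusted p = 0.00384 in edgeR's quasi-likelihood test) and 2.86 in AS (standard error 0.41, adjusted p = 0.000209 in the same test), and it was called in every one of the 13 WT and 12 AS alternatives.

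Within a mouse, the dimtdT level of *Pdgfrb* was 16.3, 22.0 and 16.7% of the brighttdT level in WT and 11.7, 16.6 and 5.08% in AS. *Rgs5* gave 16.5, 21.4 and 15.6% in WT and 19.9, 3.80 and 22.4% in AS. These WT shares lay close together, whereas those of *Pdgfra* ran from 12.97 to 110% and those of *Acta2* from 26.3 to 98.1%. The summed endothelial markers gave 4.57 to 9.58% in WT and 1.29 to 2.13% in AS, below the shares of *Pdgfrb*, *Rgs5*, *Pdgfra* and *Acta2* in all 6 mice. *Des* and *Ren1* were below the endothelial sum in 3 of 6 mice each (WT replicates 2 and 3 and AS replicate 2), down to 1.11% and 1.18% in AS replicate 2. Single endothelial markers also reached above the members, such as *Flt1* at 7.11% against 5.08% for *Pdgfrb* in AS replicate 3 and *Pecam1* at 4.44% against 3.80% for *Rgs5* in AS replicate 2. The leukocyte markers went the other way, at 11819 to 26205%, and the podocyte markers gave 71.5 to 117% in WT and 50.7 to 64.2% in AS.

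**Figure D3:**
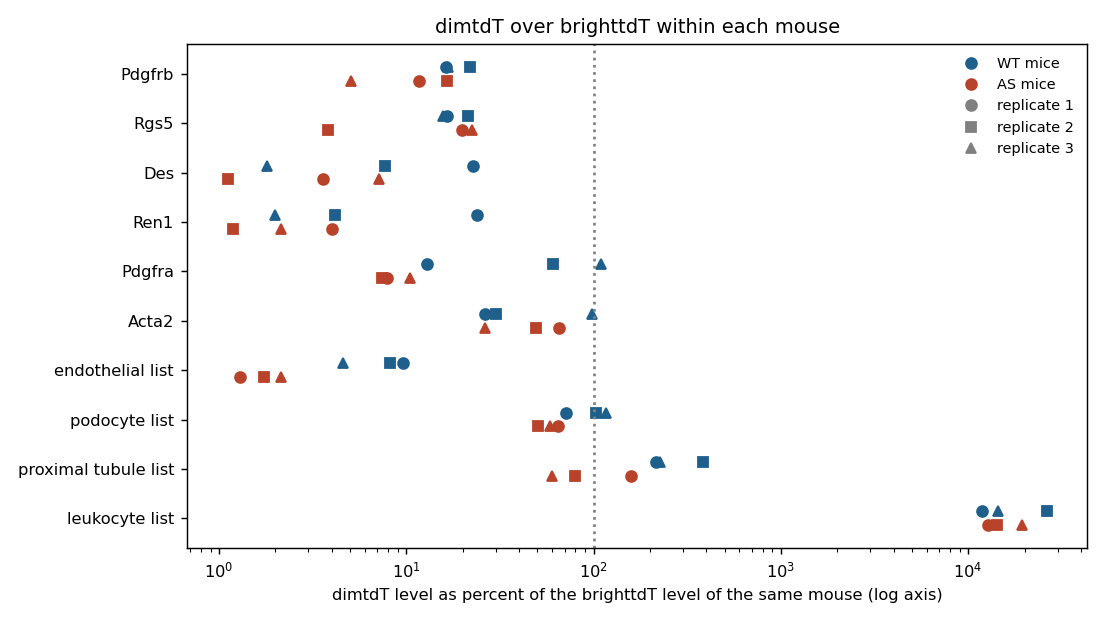
dimtdT level as a percent of the brighttdT level of the same mouse (log axis), for the 6 members in both tables and for summed marker lists, with WT mice in blue, AS mice in red, and the dotted line at 100%. *Pdgfrb* and *Rgs5* lie right of the endothelial sum in all 6 mice, *Des* and *Ren1* left of it in 3, and *Pdgfra* and *Acta2* reach about 100% in WT replicate 3.

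The contractile genes of smooth muscle were unevenly present. *Acta2* encodes smooth muscle α-actin, *Myh11* the smooth muscle myosin heavy chain, *Tagln* transgelin and *Cnn1* calponin. *Acta2* (chromosome 19, 34241090 to 34255590, minus strand) was the only one of these 4 in both tables. In WT-brighttdT it had 51.5, 24.9 and 25.5 CPM and in AS-brighttdT 14.2, 11.9 and 24.3 CPM. In CPM every WT library lay above every AS library, though the lowest WT and the highest AS library were close. On the authors' RPKM, which divide by gene length, the groups overlapped. There AS-brighttdT replicate 3 had 14.6, against 13.3 and 14.4 in WT-brighttdT replicates 2 and 3. The log2 fold change of AS over WT was -0.96 (standard error 0.39, 95% interval -1.83 to -0.10, adjusted p = 0.188 in edgeR's quasi-likelihood test), which did not pass. In the dimtdT GEC, WT had 13.5, 7.52 and 25.0 CPM and AS 9.34, 5.86 and 6.44 CPM, with overlap (log2 fold change -1.19, adjusted p = 0.184 in the same test). Brightness gave 1.06 in WT (adjusted p = 0.162) and 1.28 in AS (adjusted p = 0.0145), the latter a call that was lost without AS-brighttdT replicate 3 (log2 fold change 0.87, adjusted p = 0.0677), all in edgeR's test, in a range of 0.00442 to 0.0677 over 12 AS alternatives.

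*Myh11* (chromosome 16, 14194535 to 14291372, minus strand) had 72, 81 and 382 counts in the WT-brighttdT and 12, 23 and 10 counts in the AS-brighttdT libraries, or 4.94, 5.92 and 25.5 against 0.824, 1.58 and 0.663 CPM. WT and AS did not overlap, and WT replicate 3 stood far above the other WT mice. AS over WT was -3.55 on the log2 scale (standard error 0.81, 95% interval -5.34 to -1.76), with an adjusted p of 0.0629 in edgeR's quasi-likelihood test. Without WT-brighttdT replicate 3 the log2 fold change was -2.38 (adjusted p = 0.105 in edgeR's test). It was called without WT-brighttdT replicate 1 or 2 (adjusted p = 0.0252 and 0.0489 in edgeR's test) and by DESeq2 (adjusted p = 1.71e-05), in a range of 1.71e-05 to 0.314 over 12 alternatives. *Tagln* had 6, 3 and 1 counts in WT-brighttdT and 1, 4 and 5 in AS-brighttdT, at 0.412 CPM or less, and failed the filter on low counts. Its level is about that of the 3 counts taken as the floor, 0.199 to 0.219 CPM in these libraries. *Tagln* (chromosome 9, 45929619 to 45936058, minus strand) is also overlapped by *Pcsk7* on the other strand. The lowest second-highest count of any listed gene is 4 in both tables. *Cnn1*, which is in neither, is not analysed here.

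*Ren1* encodes renin, the enzyme that releases angiotensin I. It had 91.2, 29.3 and 19.9 CPM in WT-brighttdT and 16.1, 14.2 and 11.01 CPM in AS-brighttdT GEC. Again every AS library lay below every WT library, and WT replicate 1 was highest. The log2 fold change of AS over WT was -1.73 (standard error 0.51, 95% interval -2.85 to -0.61, adjusted p = 0.104 in edgeR's quasi-likelihood test), and without WT-brighttdT replicate 1 it was -0.79 (adjusted p = 0.194 in edgeR's test). DESeq2 called it (adjusted p = 0.00746), in a range of 0.00746 to 0.341 over 12 alternatives. In WT-dimtdT the counts were 262, 14 and 5 and in AS-dimtdT 9, 2 and 3, so that 1 mouse held nearly all of them, and the gene failed the filter for AS over WT in the dimtdT GEC.

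Renin was also the member with the largest brightness difference in AS, at 5.26 on the log2 scale (standard error 0.48, 38.2-fold, adjusted p = 5.11e-06 in edgeR's quasi-likelihood test). Its AS-dimtdT counts were 9, 2 and 3, at or below the floor of 3 counts in replicates 2 and 3, so the fold size is uncertain. In WT the brightness difference was 2.53 (standard error 1.05, adjusted p = 0.112 in edgeR's test). The WT-dimtdT library of replicate 1, at 21.6 CPM, lay above the WT-brighttdT library of replicate 3, at 19.9 CPM. A fit that kept the mouse as a replicate block gave a WT difference of 3.10 (adjusted p = 0.00635 in edgeR's test), without both libraries of WT replicate 1 it was 4.90 (adjusted p = 0.00267), and without its dimtdT library alone 5.82 (adjusted p = 0.0028), in a range of 0.00267 to 0.308 over 13 alternatives. The proximal tubule markers, all 10 of them listed, were also highest in that mouse, and their part in the result was not tested.

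The 3 members with no overlap in CPM between AS-brighttdT and WT-brighttdT were all lower in AS. They are set against 11.4% of 14396 genes that were lower without overlap. On the authors' RPKM *Acta2* overlapped. Promoter windows from RefSeq (250 bases before to 50 after each start, GRCm38.p6) were used for 6 members, and not for *Pdgfrb*, *Tagln* or *Myh11*. They were searched for the CArG box, the element bound by serum response factor in smooth muscle genes, allowing 1 G or C among its 6 central A or T bases, on both strands, and for TATAAA on the strand of the gene. Of all 32851 windows, 9.98% hold the former and 8.32% the latter. *Acta2* and *Ren1* hold a CArG match, *Ren1* also TATAAA, and the windows of *Pdgfra*, *Des*, *Cnn1* and *Rgs5* hold neither. The windows of *Acta2* and *Ren1*, lower in AS-brighttdT without overlap in CPM, are shown with that of *Des*, which had the higher mean in AS. All are descriptions of sequence, with the matches in capitals.

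Acta2 (chr19:34255324-34255623, minus strand): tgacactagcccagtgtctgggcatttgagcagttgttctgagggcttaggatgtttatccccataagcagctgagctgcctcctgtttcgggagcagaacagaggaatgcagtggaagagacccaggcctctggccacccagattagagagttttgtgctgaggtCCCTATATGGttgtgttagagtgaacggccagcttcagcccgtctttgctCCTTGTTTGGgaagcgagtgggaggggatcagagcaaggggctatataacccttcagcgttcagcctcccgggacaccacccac
Ren1 (chr1:133350424-133350723, plus strand): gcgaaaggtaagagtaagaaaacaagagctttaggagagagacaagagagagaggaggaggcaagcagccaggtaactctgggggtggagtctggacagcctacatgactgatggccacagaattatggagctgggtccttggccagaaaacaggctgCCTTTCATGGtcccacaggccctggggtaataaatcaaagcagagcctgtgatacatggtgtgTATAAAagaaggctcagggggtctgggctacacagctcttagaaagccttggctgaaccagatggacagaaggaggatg
Des (chr1:75360042-75360341, plus strand): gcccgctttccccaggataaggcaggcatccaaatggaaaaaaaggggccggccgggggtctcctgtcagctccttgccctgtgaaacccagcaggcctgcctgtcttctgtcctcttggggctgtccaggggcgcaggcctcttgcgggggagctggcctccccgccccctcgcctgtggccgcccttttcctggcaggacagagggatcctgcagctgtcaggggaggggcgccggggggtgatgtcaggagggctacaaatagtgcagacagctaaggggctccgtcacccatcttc

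For AS over WT, 0 of 7 members tested passed edgeR's quasi-likelihood test in the brighttdT and 0 of 5 in the dimtdT GEC, against 0.452% of 14396 and 8.63% of 14637 genes. At an unadjusted p under 0.05 the counts were 4 (*Pdgfrb*, *Acta2*, *Ren1* and *Myh11*) and 2 (*Acta2* and *Pdgfra*), where 21.8% and 26.3% of all genes had such a p. DESeq2 called 2 in the brighttdT (*Myh11* and *Ren1*) and 1 in the dimtdT GEC (*Pdgfra*). The brighttdT estimates had both signs. *Pdgfrb* (log2 fold change 0.95, 95% interval 0.16 to 1.74, adjusted p = 0.163 in edgeR's test), *Des* (0.80, -0.09 to 1.69) and *Pdgfra* (0.37, -0.60 to 1.35) had higher means in AS, whereas *Rgs5* (-0.48, -1.17 to 0.21), *Acta2*, *Ren1* and *Myh11* had lower ones. In the dimtdT GEC all 5 estimates were below 0, from -0.09 for *Pdgfrb* (8.62e-06 with library sizes alone) to -2.06 for *Pdgfra*, with a median of -1.01 against -0.02 for all genes. The endothelial list had a median of -2.23 in the same comparison, with 7 of 12 markers called lower. Of the 12 leukocyte markers, 9 had estimates above 0 there, against 48.9% of all genes, and 2 were called higher (median 0.40). In the brighttdT GEC the 10 proximal tubule markers had a median of -2.59. Of these, 2 were lower without overlap (11.4% of all genes) and 0 were called. The 9 podocyte markers had a median of 0.95 in the brighttdT GEC, with 8 above 0 (47.7% of all genes) and 0 called. In the dimtdT GEC their median was -1.04, with 3 called lower and 1 higher. These shifts stand beside the members' values in the same libraries, and their part in them was not tested.

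**Figure D4:**
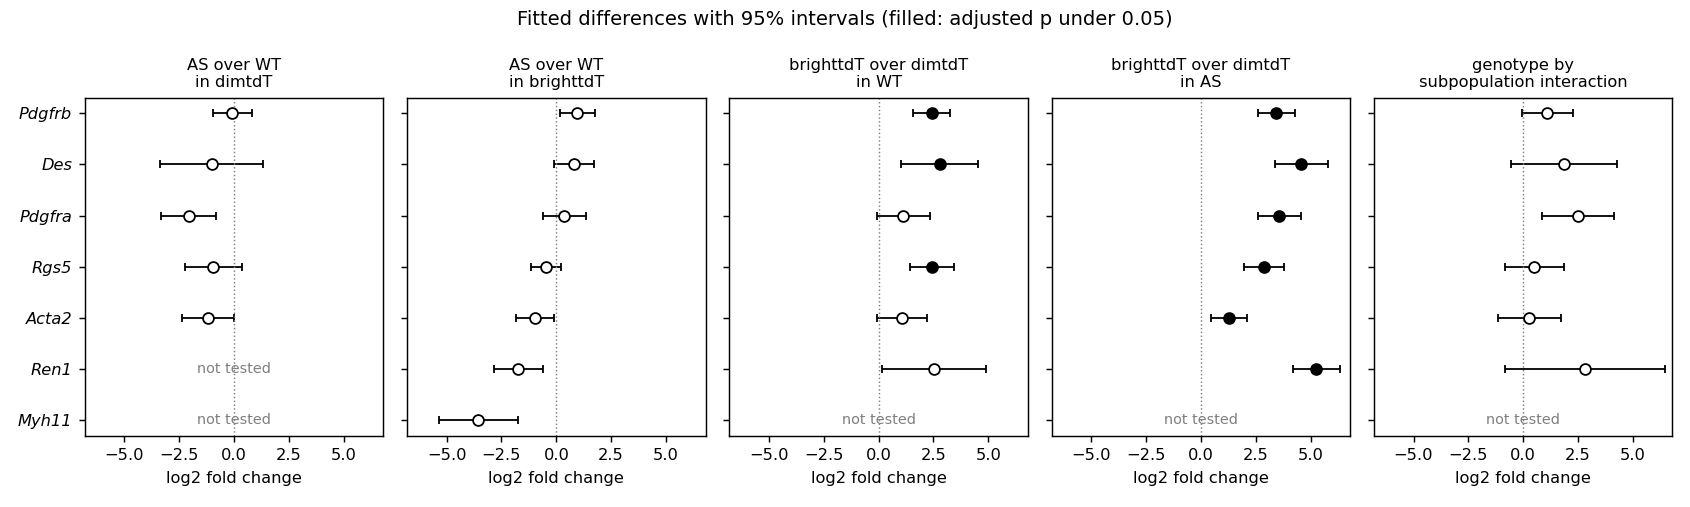
Fitted log2 fold change of 7 members in the 4 comparisons and the interaction, with 95% intervals and filled points where the adjusted p was under 0.05. Filled points occur only for brighttdT over dimtdT, for 3 members in WT and 6 in AS.

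Levels of different genes are compared on the authors' RPKM, which divide by gene length, and only within a table. In WT-brighttdT, *Ren1* (25.1 ± 20.7 RPKM, SD, n = 3) and *Acta2* (18.6 ± 8.20) had the highest means, with *Pdgfrb* at 6.60 ± 2.34, *Rgs5* at 5.99 ± 1.88 and *Des* at 2.95 ± 1.30. In AS-brighttdT the first was *Pdgfrb*, at 13.03 ± 5.64 RPKM, followed by *Acta2* (9.72 ± 4.32), *Ren1* (7.72 ± 1.44), *Des* (5.26 ± 2.08) and *Rgs5* (4.38 ± 0.936). Neighbours in these orders overlapped, except that every WT-brighttdT library had more *Acta2* than any had *Pdgfrb*. In both dimtdT groups *Acta2* had the highest mean, at 8.59 ± 5.22 RPKM in WT and 4.06 ± 1.08 in AS. The actin to myosin contrast was wide, since *Myh11* reached 1.80 ± 1.77 RPKM in WT-brighttdT and 0.153 ± 0.0622 in AS-brighttdT.

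Of 16 other mesangial and pericyte genes, 11 were tested for brightness in WT and 7 were called higher, against 13.8% of all genes. In AS 11 of 12 tested were called higher, against 28.6% of all genes. Their medians were 1.99 and 3.32. *Mcam*, a pericyte and endothelial surface protein, had log2 fold changes of 2.65 in WT and 5.03 in AS, and *Serpine2*, a protease inhibitor of mesangial cells, 1.91 in WT. *Ptn*, the growth factor pleiotrophin, was 2.76 higher on the log2 scale in WT-brighttdT, and *Notch3*, the mural Notch receptor, and *Gata3*, a transcription factor of mesangial cells, 2.42 and 2.01 higher in AS-brighttdT than in AS-dimtdT. For AS over WT, 0 of 13 tested passed edgeR's test in the brighttdT and 0 of 11 in the dimtdT GEC (0.452% and 8.63% of all genes). In the brighttdT GEC the median of the list was 0.58, with 10 of 13 above 0. That of the members was -0.48, with 3 of 7 above 0, and 47.7% of all genes were above 0.

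Among 14 other contractile genes, 6 of 9 tested were called higher in WT-brighttdT and 8 of 9 in AS-brighttdT, none lower, against 13.8% and 28.6% of all genes called higher, with medians of 1.36 and 3.07. *Cald1* (caldesmon) and *Smtn* (smoothelin) led with 2.81 and 2.75 in WT and 4.09 and 4.28 in AS, and *Srf*, the gene of serum response factor, had 0.87 in WT, called in 4 of 13 alternatives, and 0.98 in AS. In AS-dimtdT *Mylk*, the myosin light chain kinase, was lower than in WT-dimtdT, at 16.4 to 23.0 against 49.1 to 90.2 CPM (log2 fold change -1.77, adjusted p = 0.0199 in edgeR's quasi-likelihood test), as was *Tpm1*, a tropomyosin (-0.72, adjusted p = 0.046). The former was called in 10 and the latter in 3 of 12 alternatives. In the brighttdT GEC 0 of 10 tested passed, against 0.452% of all genes. Of these 10, 9 had estimates above 0 for AS over WT, where 47.7% of all genes did, with a median of 0.41. *Smtn* had 1.21 (adjusted p = 0.0547 in edgeR's quasi-likelihood test). *Lmod1*, at -1.13 (adjusted p = 0.402 in the same test), was below 0, as were *Acta2* and *Myh11*.

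Of 9 fibroblast genes, 3 were listed for the dimtdT and 4 for the brighttdT libraries. *Col1a2*, a chain of type I collagen, was higher in AS-brighttdT (55.7, 33.9 and 48.9 CPM) than in WT-brighttdT (16.3, 14.3 and 13.7 CPM), or 1.69 higher on the log2 scale (standard error 0.29, adjusted p = 0.0412 in edgeR's quasi-likelihood test). The call was lost in 6 of 12 alternatives, among them edgeR's version 3 fit (adjusted p = 0.0604), the replicate block (0.0664) and the fits without WT-brighttdT replicate 3 or AS-brighttdT replicate 1 or 3 (0.103 to 0.249), while the log2 fold change stayed at 1.503 to 1.92. The dimtdT libraries had 20.05, 35.3 and 53.3 CPM in WT and 24.1, 16.1 and 23.3 CPM in AS. In WT it was lower in the brighttdT than in the dimtdT GEC (-1.35, adjusted p = 0.0397, called in 7 of 13 alternatives) and in AS higher (1.18, adjusted p = 0.00449, called in 12 of 12, both in edgeR's test).

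The genes whose levels were most like each member were found by Pearson's r of log2(CPM + 1) over the 12 libraries, among 13953 genes with a mean of at least 1 CPM in both tables. These are descriptions, since the points share the 4 groups. *Pdgfrb* was most like *Csrp1* (r = 0.98), *Des* most like *Rhbdf1* (0.98), *Rgs5* most like *Tmtc4* (0.98), *Pdgfra* most like *Triqk* (0.97), *Ren1* most like *Tmem14a* (0.95) and *Acta2* most like *Cbx2* (0.94). With the group means removed, which leaves the variation between mice of a group, *Pdgfrb* was most like *Rasl12* (0.99), *Ednra* (0.95) and *Rgs4* (0.95). *Rgs5* was then most like *Foxf1* (0.95) and *Ren1* most like *Tfg* (0.97).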

How the data were processed

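RNA of dimtdT and brighttdT GEC of 3 WT and 3 AS mice was analysed. The authors trimmed the reads and aligned them with STAR 2.6.0c to GRCm38.p5 (Gencode M16), and deposited STAR's raw counts per gene in a table for each subpopulation. The deposited RPKM were computed by the authors from these counts, per kilobase of gene length. The fold changes, logCPM, likelihood ratios, p-values and FDR in the tables are the authors' own comparisons of AS and WT and were not used. The 92 ERCC spike-ins per table were left out.

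Counts were tested with edgeR 4.0.16 in R 4.3.3 (quasi-likelihood test, TMM, filterByExpr, two-sided, Benjamini-Hochberg over all genes tested, threshold 0.05). AS over WT used the 6 libraries of a table. brighttdT over dimtdT and the interaction used the 15768 genes in both tables. Intervals are 95%, and those of AS over WT cover the spread between mice. The fits of brightness and of the interaction had no term for the mouse, although both libraries of a mouse were in them. Their intervals therefore treat paired libraries as independent. A floor of 3 counts per library covers counting error only.

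The sample labels give both libraries of a mouse its number, which is where the pairing comes from. Deviations from group means correlated within a mouse (mean r 0.189 in WT and 0.214 in AS, lowest 0.0791) more than between mice on average (-0.0944 and -0.105). In AS, 2 between-mouse pairs (0.184 and 0.0932) exceeded the same mouse's value (0.177 and 0.0791).

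Members and gene lists were chosen with earlier results of these data known. Genes named from a list are, of those that passed in a comparison, among the top 2 or the bottom 2 by log2 fold change. A symbol with more than 1 identifier was read from the identifier with the most counts. Gene positions are those of Gencode M21 on GRCm38. Alternatives were RLE, library sizes alone, DESeq2 1.42.0, no filter, a replicate block, edgeR's version 3 fit and each library left out. Library sizes alone, the version 3 fit and leaving out the mouse of WT replicate 1 were chosen after seeing the data. The version 3 fit is the default of this edgeR release and was run first. The version 4 fit was made the main one after those calls had been seen, because an earlier analysis of these data gave its counts of calls.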

Additional observations from a re-analysis of the deposited data

Results flagged for a closer look

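In 5 of 26 tested genes of the mesangial and pericyte, contractile, PDGF ligand and fibroblast lists, against 3.77% of all genes, the brightness difference itself differed between AS and WT mice, by the interaction term in edgeR's quasi-likelihood test over 12 libraries. The interaction was 2.44 for *Mcam*, 2.22 for *Mylk*, 1.40 for *Csrp1*, 1.72 for *Pdgfd* and 2.59 for *Col1a2* on the log2 scale, with adjusted p-values of 0.0112, 0.00432, 0.0235, 0.0176 and 0.0131 in that test. For *Mcam*, *Mylk*, *Csrp1* and *Pdgfd* brighttdT was above dimtdT in both genotypes and by more in AS. *Csrp1* was called in 13 and *Pdgfd* in 16 of 19 alternatives, the others in all 19. The same interaction was called for 9 of 12 endothelial markers (median 2.57) and 6 of 9 podocyte markers (median 2.15), all higher, and the part of these cells in the values above was not tested. For *Col1a2* the direction differed between the genotypes. No group has more than 3 libraries, so no single library was tested for standing apart.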

How the results depend on the processing

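For the members, *Pdgfrb* and *Rgs5* kept their direction and their call for brightness under all 13 alternatives in WT and all 12 in AS, and *Pdgfra*, *Des* and *Ren1* in AS. Leaving out 1 library at a time, the members called ranged from 2 to 4 in WT and 5 to 6 in AS for brightness, from 0 to 1 for AS over WT in each subpopulation and from 0 to 1 for the interaction. DESeq2 called 1 member for AS over WT in dimtdT, 2 in brighttdT and 1 for the interaction, and leaving out both libraries of WT replicate 1 called 1 for the interaction. Over all genes, AS over WT in dimtdT gave 1263 calls, DESeq2 2213, the replicate block 494, edgeR's version 3 fit 582 and the fits without 1 library 0 to 1825. In brighttdT the 65 calls became 1117 with DESeq2, 39 without the filter, 16 with the replicate block, 0 with the version 3 fit (in the fit reported, 3145 genes were under 0.05 before adjustment) and 0 to 281 without 1 library. The interaction's 569 calls became 1186 with DESeq2, 877 with the mouse as a replicate block and 252 to 857 without 1 library. Without 1 library the brightness calls were 2534 to 3435 in WT (3604 with all) and 6651 to 7490 in AS (7743 with all). The cause was not tested. WT and AS mice share only a number (mean r -0.0483 and -0.0365 for same-numbered mice). Besides the WT call of *Ren1*, the replicate block changed no call of a member.

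Directions turned for estimates that did not pass. *Pdgfrb* in AS over WT in dimtdT was 8.62e-06 with library sizes alone, 0.17 without WT-dimtdT replicate 1 and 0.11 without AS-dimtdT replicate 3, in a range of -0.34 to 0.17 without 1 library, and *Des* was 0.88 without WT-dimtdT replicate 1, in a range of -1.59 to 0.88. In the interaction, *Des* was -0.0097 and *Ren1* -0.50 without WT-dimtdT replicate 1, *Acta2* -0.29 without WT-dimtdT replicate 3 and -0.14 without AS-brighttdT replicate 3, and *Rgs5* -0.029 without AS-dimtdT replicate 2. Without 1 library these ranged up to 2.46 for *Des*, 3.70 for *Ren1*, 0.67 for *Acta2* and 0.89 for *Rgs5*. Library sizes alone moved the median of all genes in the interaction by -0.16. The dimtdT counts of *Des*, *Ren1* and *Rgs5*, as low as 2 in a library for the first and second, limit what these fits can show.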

Other observations

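Between the mice of a group, that is with group means removed from log2(CPM + 1) in the 12 libraries, *Des* and *Ren1* varied together most among the members (Pearson's r = 0.85), followed by *Pdgfra* with *Acta2* (0.65), *Des* with *Rgs5* (0.61) and *Pdgfrb* with *Des* (0.60). *Pdgfra* with *Ren1* (-0.16) and *Acta2* with *Rgs5* (-0.13) were lowest. The value for *Des* and *Ren1* includes the dimtdT library of WT replicate 1, in which both had their highest dimtdT counts, 58 and 262.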
